A study of Caenorhabditis elegans with 43 samples.

Results

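The endoplasmic reticulum (ER) stress genes described here are 10 genes of *Caenorhabditis elegans*: *hsp-3*, *hsp-4*, *xbp-1*, *ire-1*, *pek-1*, *atf-6*, *crt-1*, *dnj-7*, *dnj-27* and *enpl-1*. They were picked by gene symbol as known ER stress genes, by a rule that uses no measured value, though at a time when earlier results of these data were known, and all 10 were among the 13837 genes that passed the authors' filter on low values, from 46739 genes in the unfiltered table. When unfolded proteins accumulate in the lumen of the ER, a set of sensors in its membrane starts the unfolded protein response, which raises the production of ER chaperones and lowers the load of new protein. It is separate from the mitochondrial unfolded protein response, in which the transcription factor ATFS-1 moves to the nucleus and induces mitochondrial chaperones such as *hsp-6*. In worms the ER branch is known for its work in the intestine, which makes yolk in adults, and in the hypodermis, which secretes the cuticle.

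The members fall into sensors, a transcription factor and chaperones. IRE-1 is a membrane kinase and endoribonuclease that splices the *xbp-1* mRNA, and the spliced form encodes the XBP-1 transcription factor. PEK-1 is the worm homologue of PERK, a kinase that lowers translation, and ATF-6 is a membrane-bound transcription factor. HSP-3 and HSP-4 are the 2 worm homologues of the Hsp70 chaperone BiP, and *hsp-4* is the usual reporter gene of the response. CRT-1 is calreticulin, a calcium-binding chaperone, and ENPL-1 is the homologue of the Hsp90 chaperone GRP94. DNJ-7 and DNJ-27 are J-domain proteins of the ER, the worm relatives of mammalian DNAJC3 and of the disulfide reductase ERdj5.

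In the WBcel235 genome, with Ensembl gene models, the sensor genes lie at 8112243 to 8124910 on the minus strand of chromosome II (*ire-1*), at 11410176 to 11414887 on the minus strand of chromosome X (*pek-1*) and at 12480948 to 12484904 on the plus strand of chromosome X (*atf-6*). *xbp-1* spans 4193809 to 4195358 on the plus strand of chromosome III. The BiP genes are on different chromosomes, with *hsp-3* at 6089028 to 6092124 on the minus strand of X and *hsp-4* at 7350112 to 7352645 on the minus strand of II. *crt-1* is at 6098992 to 6100542 on the minus strand of chromosome V and *enpl-1* at 11119298 to 11123155 on the plus strand of chromosome IV. *dnj-7* is at 7194564 to 7198291 on the plus strand of X and *dnj-27* at 11877803 to 11887278 on the plus strand of chromosome I. Every value counts reads over the whole gene, so spliced and unspliced *xbp-1* mRNA were not told apart.

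RNA from whole worms at the prefertile young adult stage was sequenced in 43 libraries of 8 genotypes and 3 sequencing batches, with wild-type N2 worms in each batch. Batch 2 held 6 libraries of *nuo-6* worms, which carry a mutation in a subunit of mitochondrial complex I, and 6 of wild type. Batch 3 held 3 libraries each of a strain coded NA238, of *atfs-1* worms and of wild type. Batch 1 held 3 libraries of an *atfs-1* deletion, 5 of *atfs-1(et15)*, 6 of *atfs-1(et17)*, 3 of *hif-1*, 2 of *nuo-6;hif-1* and 3 of wild type. By the study's methods the *nuo-6* allele was qm200, the *hif-1* allele ia4 and the loss-of-function *atfs-1* allele gk3094, and the strains included doubles of *nuo-6* with *atfs-1* and with *hif-1*. The code NA238 was read as *nuo-6;atfs-1*, which the labels do not spell out, and neither *atfs-1* label names the gk3094 allele. The et15 and et17 alleles change the mitochondrial targeting sequence and leave ATFS-1 constitutively active, and *hif-1* encodes the hypoxia-inducible factor. All worms grew on plates with OP50 bacteria, many animals were pooled for each library, and the labels name no ER stressor for any group. A difference can therefore reflect a change in some tissues or a different share of tissues, and fewer cells of a type cannot be told apart from less RNA per cell.

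The libraries held between 21466920 and 48493377 reads in genes, with a median of 35067190. Every member had at least 258 reads in every library. For the least abundant members, *atf-6* and *dnj-27*, counting error can be as large as the small spread between replicates of batch 3, where *atf-6* had 450 to 487 reads in wild type. Among the targeted genes, *hif-1* was at 32.27, 28.37 and 18.45 normalized CPM (the gene's reads scaled to its library's depth) in *hif-1* worms and at 34.96 and 43.37 in *nuo-6;hif-1* worms, against 220.3, 207.6 and 191.5 in wild type of the same batch. *atfs-1* was at 29.22, 26.82 and 25.62 normalized CPM in NA238 worms, at 30.29, 24.9 and 24.53 in *atfs-1* worms and at 72.84, 74.06 and 55.91 in wild type of batch 3. The *hif-1*, *nuo-6;hif-1* and *atfs-1* libraries carried the low transcript that their labels call for. NA238 libraries, whose label names no gene, carried the low *atfs-1* that the reading as *nuo-6;atfs-1* calls for. The *nuo-6* mutation cannot be checked by level, and *nuo-6* mRNA was higher in *nuo-6* worms than in wild type (log2 fold change 0.48, limma, adjusted p = 0.0022). *hsp-6* rose in *nuo-6* (0.73, adjusted p = 7.5e-05), *atfs-1(et15)* (1.01, adjusted p = 4.7e-05) and *atfs-1(et17)* worms (1.03, adjusted p = 5.8e-05). No marker of intestine, body wall muscle, neurons, hypodermis or germ line was at 0 throughout a group.

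Libraries of the *atfs-1* deletion stood apart within batch 1. The difference of each of the 903 library pairs was expressed as a ratio to the sampling noise of their reads, where 1 is noise alone. The 3 closest pairs of all were deletion replicate 3 with *atfs-1* replicate r of batch 3 (2.07), deletion replicate 2 with replicate bl (2.1) and deletion replicate 1 with replicate b (2.94). Each deletion library thus had 1 partner in batch 3, and it lay closer to that partner than any of the 74 pairs of replicates of a group and batch lay to each other, which ranged over 3.73 to 42.01 with a median of 16.25. Against wild type the ratios were 4.27 to 35.09 in batch 3 and 17.8 to 83.54 in batch 1. All ratios were above 1, so these pairs differed by more than sampling noise, and the labels do not say whether they share RNA. The deletion and *atfs-1* libraries are therefore not treated as independent repeats of one another, and calls of members in the deletion are given against wild type of both batches.

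In wild-type worms the members covered a wide range of levels. Compared per kilobase of exon over the 12 wild-type libraries, *crt-1* was highest at 1041 ± 280 normalized CPM per kilobase (SD, n = 12). The chaperones *hsp-3* (453.7 ± 148.2), *hsp-4* (294.9 ± 193.3) and *enpl-1* (255.5 ± 57.86) followed, then *xbp-1* (186.6 ± 67.88). The J-domain gene *dnj-7* (37.05 ± 10.67) and *ire-1* (33.55 ± 7.088) did not differ beyond their spread, nor did *pek-1* (13.17 ± 7.073) and *dnj-27* (12.12 ± 6.643). *atf-6* was lowest, at 5.204 ± 0.93 normalized CPM per kilobase. By their ranges over the 12 libraries all neighbours in this order overlapped, except *xbp-1* (lowest 120.7) and *dnj-7* (highest 55.17).

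Wild-type worms differed between batches in these genes, and this sets the scale for every comparison. Between batch 3 and batch 2, 6 of 10 members passed the test at an adjusted p under 0.05 (limma on log2(normalized CPM + 0.5), Benjamini-Hochberg over all genes), where 45.0% of all genes did. *hsp-3* was at 850.6, 730.4 and 670.1 normalized CPM in wild type of batch 3, against a lowest of 1074, a median of 1507 and a highest of 2008 in batch 2, and these ranges did not overlap. Its log2 fold change was -0.95 ± 0.21 (SE, adjusted p = 0.00044). *crt-1* (-0.70), *dnj-7* (-0.69), *dnj-27* (-0.94) and *enpl-1* (-0.51) were also lower in batch 3, and *ire-1* was higher (0.53, adjusted p = 0.011). Between batches 3 and 1, 0 of 10 members passed by limma, with 2 at an unadjusted p under 0.05, 1 call by edgeR and 0 by DESeq2, where 24.6% of all genes passed. Between batches 2 and 1 also 0 passed by limma, with 1 at an unadjusted p under 0.05 and 0 calls by either other tool, where 0.289% of genes passed. That member was *dnj-27*, higher in batch 2 (0.90 ± 0.30, adjusted p = 0.11). Each mutant was therefore compared with wild type of its own batch.

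**Figure D1:**
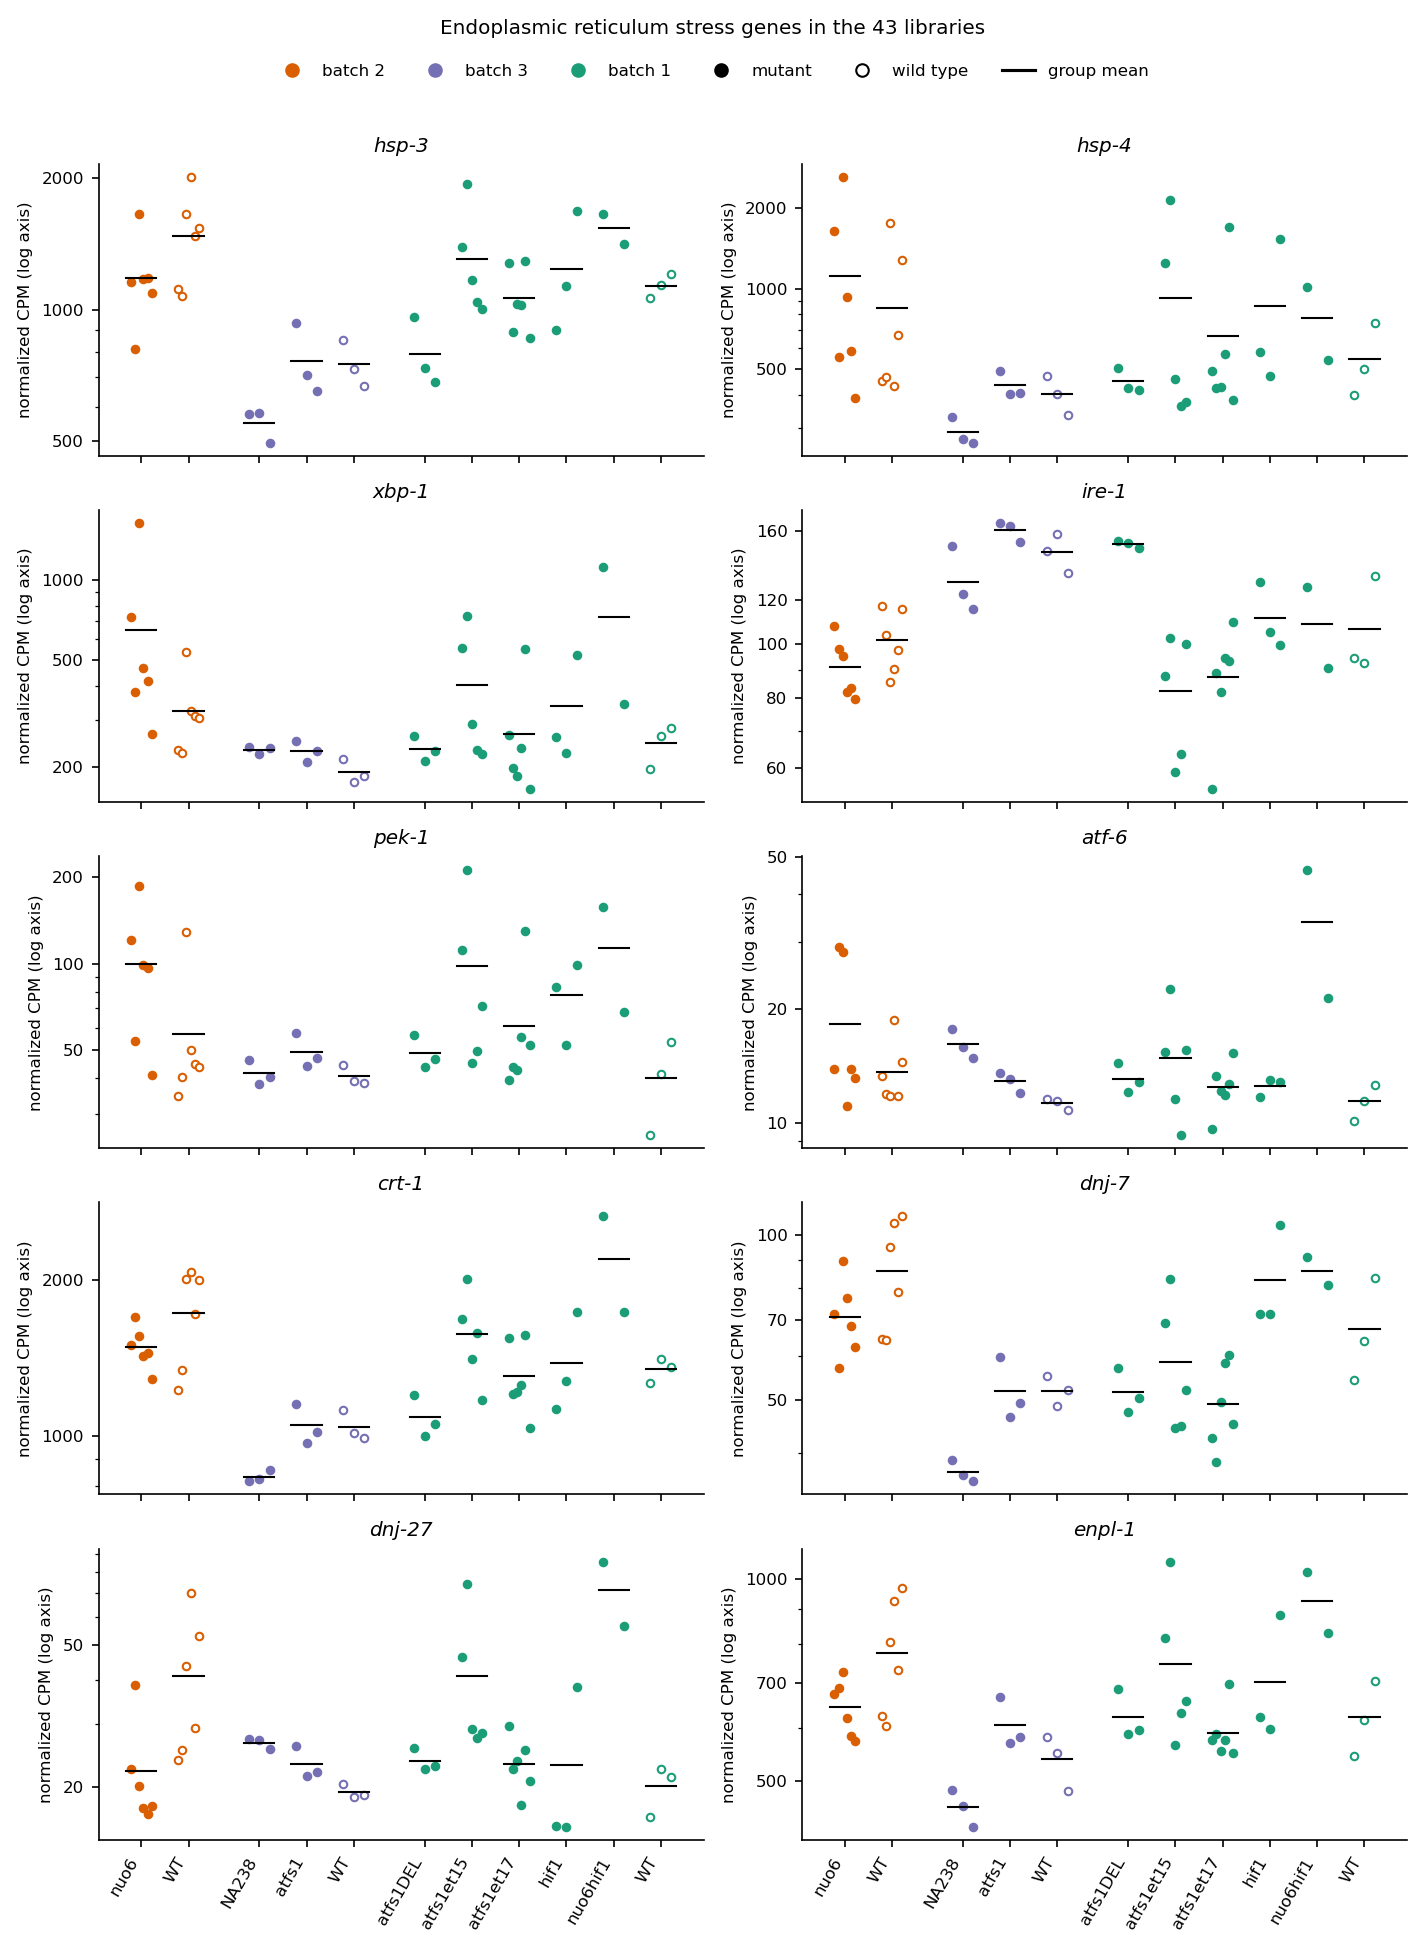
Level of the 10 members in each of the 43 libraries, in normalized CPM on log axes, with 1 panel a gene. Points are libraries (filled for mutants, open for wild type, coloured by batch), bars are group means, and in batch 3 the points lie close together while *hsp-4* spans 389.1 to 2617 in *nuo-6* worms.

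*hsp-4*, *xbp-1* and *pek-1* varied widely between libraries of several genotypes in batches 1 and 2, and little in batch 3 and in the deletion of batch 1. The highest library was 6.73, 6.16 and 4.53 times the lowest in *nuo-6* worms for these genes in that order, and 1.07 to 1.41 times within the groups of batch 3. *hsp-4* ranged 9.9-fold over all libraries, from 264.2 to 2617 normalized CPM, and 9 of the 43 libraries were above 1000. These 9 came from 6 groups: *nuo-6* replicates 1 and 3, *atfs-1(et15)* replicates 2 and 3, *atfs-1(et17)* replicate 5, *hif-1* replicate 3, *nuo-6;hif-1* replicate 2 and wild-type replicates 6 and 9 of batch 2. No library of batch 3 was among them, where the highest *hsp-4* level was 490.7. The other BiP gene, *hsp-3*, moved less, so that *hsp-4* made up between 17.71% and 61.27% of the reads of the pair across batch 2. Reads that map equally well to both genes would not have been counted for either, so this share rests on the stretches in which they differ.

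Libraries with high *hsp-4* mostly had high *xbp-1* and *pek-1*. *nuo-6* replicate 3, with the highest *hsp-4*, also had the highest *xbp-1* of all libraries (1626 normalized CPM) and the second highest *pek-1* (185.7). *atfs-1(et15)* replicate 3 had 2145 normalized CPM of *hsp-4*, 730.8 of *xbp-1* and 211.7 of *pek-1*, the highest of all for *pek-1*. Wild-type replicate 6 of batch 2 had 1764, 537.7 and 129.0 normalized CPM of these genes in the same order, so the pattern was not limited to mutants. Wild-type replicate 9 was an exception, with 1280 normalized CPM of *hsp-4* and 43.83 of *pek-1*, which put it 31st of 43 libraries for *pek-1*.

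Over the 43 libraries, each taken as its log2 level minus the wild-type mean of its batch, *hsp-4* followed *xbp-1* (Pearson r = 0.83) and *pek-1* (0.82), and *xbp-1* followed *pek-1* (0.84). A second set of members moved together as well, with *crt-1* and *enpl-1* at 0.85, *hsp-3* and *crt-1* at 0.84 and *dnj-27* and *enpl-1* at 0.81. Of the 45 pairs of members 41 were positive, with a median of 0.52. *ire-1* stood outside both sets, with correlations of 0.10 to *hsp-4*, 0.05 to *pek-1* and -0.17 to *hsp-3* and *crt-1*. These are descriptions, since all genes share the same libraries, scaling factors and animals, and the deletion and *atfs-1* libraries are near copies.

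**Figure D2:**
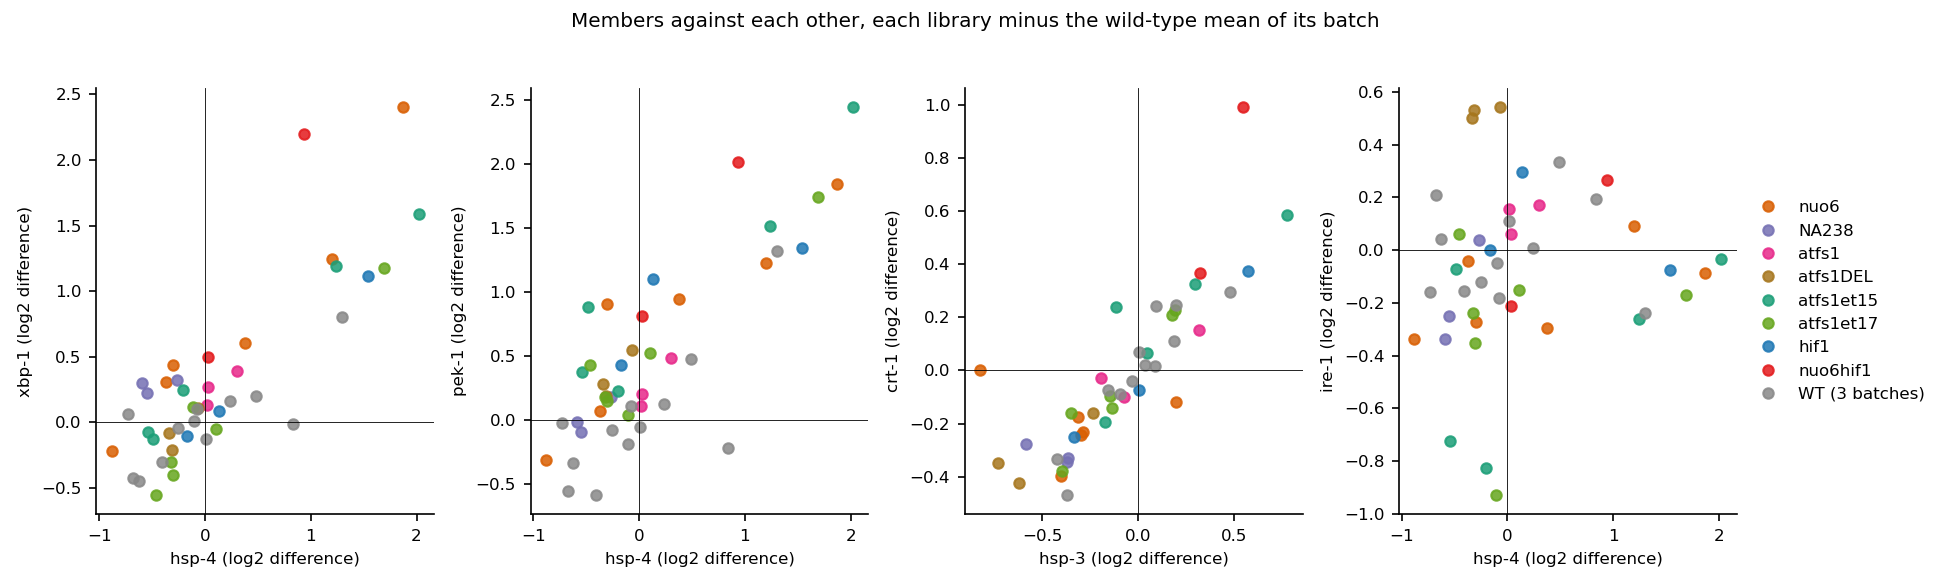
Pairs of members in the 43 libraries, each point a library, each axis the log2 level minus the wild-type mean of the library's batch. *hsp-4* rises with *xbp-1* (r = 0.83) and *pek-1* (0.82) and *hsp-3* with *crt-1* (0.84), while *ire-1* shows no such relation to *hsp-4* (0.10), and the libraries with the highest *hsp-4* come from several genotypes and from wild type.

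The genes whose pattern was most like that of *hsp-4*, by the same measure over 43 libraries and among genes with a mean of at least 5 normalized CPM, were Y38E10A.22 (0.895), T13C5.6 (0.863), *ipla-2* (0.863), *hsp-70* (0.859), which encodes a stress-inducible Hsp70, and *ugt-25* (0.853), which encodes a glucuronosyltransferase. Those most like *hsp-3* were *calu-1* (0.854), which encodes the calcium-binding ER protein calumenin, the member *crt-1* (0.839), the protein disulfide isomerase gene *pdi-6* (0.83), C34F6.7 (0.807) and *pdi-2* (0.796). The lists for the 2 BiP genes had no gene in common.

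In *nuo-6* worms *dnj-27* was lower than in wild type of batch 2, and no other member passed the test. *dnj-27* had a lowest level of 16.83, a median of 18.88 and a highest of 38.66 normalized CPM in *nuo-6* worms, against 23.76, 36.49 and 70.08 in wild type of batch 2. Wild type of the other batches was lower than that of batch 2 and near the *nuo-6* median, at 16.41 to 22.51 in batch 1 and 18.72 to 20.42 in batch 3. In 5 of 6 *nuo-6* libraries *dnj-27* was below every wild-type library of batch 2, and replicate 2 overlapped. The log2 fold change was -0.82 ± 0.24 (SE, adjusted p = 0.0073), 1 of 10 members called, where 40.3% of all genes were called. It was past the threshold with any of the 12 libraries left out, with log2 fold changes of -0.99 to -0.64. Of 10 molting markers 3 were also lower, with sums of 199.4 to 1164 normalized CPM in *nuo-6* worms and 494.4 to 4661 in wild type.

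*xbp-1* and *pek-1* had the largest positive differences in *nuo-6* worms but did not pass. *xbp-1* had a lowest level of 264.1, a median of 442.6 and a highest of 1626 normalized CPM in *nuo-6* worms, against 225.1, 307.4 and 537.7 in wild type. Its log2 fold change was 0.80 ± 0.34 (SE, adjusted p = 0.057), and that of *pek-1* was 0.78 ± 0.34 (adjusted p = 0.067). Both passed when wild-type replicate 6 (0.96 and 1.05), *nuo-6* replicate 2 (0.89 and 0.92) or *nuo-6* replicate 6 (1.00 and 1.00) was left out, which gave 3 members called, and *hsp-3* joined *dnj-27* without *nuo-6* replicate 3 (-0.43, 2 called). edgeR and DESeq2 on reads recovered from the CPM called *xbp-1* beside *dnj-27* (0.99 and 1.00). *hsp-4* had a lowest of 389.1, a median of 756.3 and a highest of 2617 in *nuo-6* worms, against 432.1, 565.6 and 1764 in wild type, and its log2 fold change was 0.31 ± 0.44 (adjusted p = 0.59). The 95% interval of that change ran over -0.54 to 1.17. No member separated the *nuo-6* and wild-type libraries completely, as 15.1% of all genes did.

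Other ER genes were called in *nuo-6* worms at shares to be read against the 40.3% of all genes called, and no list is singled out by them. Of 13 genes for translocation into the ER 8 were lower and 0 higher, with a median log2 fold change of -0.35, against -0.03 over all genes. Of 12 genes for oxidative folding and prolyl isomerisation 6 were lower (median -0.57), among them *fkb-5* (-1.45, adjusted p = 0.0088), *fkb-4* (-1.31, adjusted p = 0.015) and the disulfide isomerase gene *pdi-2* (-0.73, adjusted p = 0.0039). Of 10 genes for lectin chaperones and N-glycosylation 6 were lower (median -0.32), and of 7 signalling partners 4 were, led by *gcn-1* (-0.67, adjusted p = 0.0006), which acts with the amino acid sensor GCN-2. Of 18 genes of ER-associated degradation 3 were lower and 1 higher. The higher one was C47E12.3 (0.51, adjusted p = 0.00015), and the lower ones included both *cdc-48* genes, which encode the segregase that pulls proteins from the ER membrane (*cdc-48.2* -0.58 and *cdc-48.1* -0.54). All 3 germ line markers were lower as well (median -0.73), their summed level running over 452.9 to 740.6 normalized CPM in *nuo-6* worms and 936.3 to 1280 in wild type, and the part of this in the list results was not tested.

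In batch 3, where replicates were close, NA238 worms had lower BiP, calreticulin and *dnj-7* in all libraries, but no member passed the test when the spread of all 43 libraries was used. *hsp-3* was at 577.5, 580.1 and 496.8 normalized CPM in NA238 worms, against 930.5, 708.5 and 653.0 in *atfs-1* worms and 850.6, 730.4 and 670.1 in wild type. *hsp-4* was at 330.6, 271.8 and 264.2 in NA238 worms, against 490.7, 403.1 and 406.2 in *atfs-1* worms and 469.9, 401.5 and 334.3 in wild type. For both genes each NA238 library was below each of the other 6. Of all genes, 49.3% separated NA238 from *atfs-1* worms completely. *crt-1* (816.6, 824.8 and 856.2 in NA238 worms, against 1122, 1010 and 987.3 in wild type) and *dnj-7* (38.73, 36.42 and 35.52 in NA238 worms, against 55.25, 48.65 and 52.01 in wild type) were also lower in each NA238 library than in each wild-type one.

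Members that went the other way in NA238 worms were *atf-6*, *dnj-27* and *xbp-1*. *atf-6* was at 17.64, 15.88 and 14.86 normalized CPM in NA238 worms, against 11.58, 11.41 and 10.86 in wild type. *dnj-27* was at 27.28, 27.03 and 25.54, against 20.42, 18.72 and 19.01 in wild type, and *xbp-1* at 237.7, 222.3 and 233.9, against 213.4, 174.5 and 184.9. In *atfs-1* worms *atf-6* was at 13.58, 13.05 and 12.04, *dnj-27* at 26.08, 21.47 and 22.06 and *xbp-1* at 250.3, 208.5 and 228.9. Of these only *atf-6* was higher in each NA238 library than in each *atfs-1* one. *atf-6* and *dnj-27* also separated *atfs-1* worms from wild type completely, where 16.4% of all genes did. In total 7 of 10 members separated NA238 from wild type completely, 3 higher and 4 lower, where 46.4% of all genes did. By limma 0 of 10 members were called, where 17.2% of genes were, with 1 at an unadjusted p under 0.05 (*dnj-7*, log2 fold change -0.49 ± 0.22, adjusted p = 0.11) and 0 calls by edgeR or DESeq2. The fit of batch 3 alone, which uses only its own spread, called 6 of 10 members in that direction, where 40.8% of genes were called: *hsp-3* (-0.44), *hsp-4* (-0.47), *crt-1* (-0.32) and *dnj-7* (-0.49) lower, *atf-6* (0.49) and *dnj-27* (0.45) higher.

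Against *atfs-1* worms of the same batch, NA238 worms gave 0 of 10 calls, where 14.3% of genes were called, with 2 members at an unadjusted p under 0.05 (*enpl-1* -0.41 and *dnj-7* -0.48, both adjusted p = 0.13) and 0 calls by edgeR or DESeq2. The fit of batch 3 alone called 6 of 10 members, 1 higher and 5 lower, where 36.9% of genes were called. Among other ER genes in NA238 worms the called ones were lower than in wild type, at shares near the 17.2% of all genes called: 3 of 10 genes for lectin chaperones and N-glycosylation were lower (*dad-1* -0.44, *ostb-1* -0.39 and *ribo-1* -0.35, parts of the oligosaccharyltransferase), as were 2 of 12 folding genes (*pdi-6* -0.76 and Y49E10.4 -0.51) and 2 of 13 translocation genes (*spcs-1* -0.53 and C18E9.2 -0.42). *rtcb-1*, the RNA ligase that joins the pieces of cut *xbp-1* mRNA, was lower too (-0.53, adjusted p = 0.012). No gene of these lists was higher. Of the 3 germ line markers 2 were lower, with sums of 681.7 to 961.6 normalized CPM in NA238 worms and 979.6 to 1268 in wild type, and 2 of 3 body wall muscle markers were higher. Their part in these results was not tested.

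In *atfs-1* worms no member was detectably different from wild type. In batch 3, 0 of 10 members were called in *atfs-1* worms, with 0 at an unadjusted p under 0.05 and 0 calls by edgeR or DESeq2, where 0.188% of all genes were called. The log2 fold changes ran over -0.01 for *dnj-7* to 0.27 for *pek-1*, and that of *hsp-4* was 0.12 with a 95% interval of -1.10 to 1.33. *hsp-3* was not called against wild type of its batch (0.02), and when all wild-type libraries were used as 1 group with no batch term it was at -0.61 (adjusted p = 0.047), in the direction of the wild-type batch difference.

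The deletion libraries of batch 1 gave 1 call, *ire-1*, and that call rested on the wild type used. *ire-1* was at 153.2, 152.0 and 148.9 normalized CPM in deletion worms, against 94.48, 92.53 and 132.8 in wild type of batch 1 (log2 fold change 0.52 ± 0.20, adjusted p = 0.04), where 31.8% of all genes were called. It was at 147.1, 157.9 and 134.5 in wild type of batch 3, and against these the log2 fold change was 0.05 (adjusted p = 1) and 0 members were called. Leaving out wild-type replicate 1 (0.45, adjusted p = 0.14) or 2 (0.43, 0.19), or deletion replicate 1 (0.52, 0.085), 2 (0.52, 0.095) or 3 (0.54, 0.078), ended the call. Against wild type of batch 1 other ER genes were higher in deletion worms, among them *rtcb-1* (0.58, adjusted p = 0.0049), *dad-1* (0.58, 0.0017), *mans-4* (0.66, 0.017) and *sec-11* (0.44, 0.01), while *uggt-2* (-1.24, 0.0067) and *sca-1* (-0.78, 0.0056) were lower. All 3 body wall muscle markers were lower than in wild type of batch 1. Their sums were 2288 to 5290 normalized CPM in deletion worms and 8892 to 10290 in that wild type. In wild type of batch 3 the sums were 1893 to 4001, so the low muscle level was not particular to deletion worms. The ER genes named here are not given against wild type of batch 3, and the part of the muscle markers in these results was not tested. Of the members, *hsp-4* was at 502.9, 424.5 and 417.0 normalized CPM in the deletion libraries, where the partner libraries of batch 3 had 490.7, 403.1 and 406.2. The difference between the *atfs-1* effects of batches 3 and 1 was called for 0 of 10 members, with 0 at an unadjusted p under 0.05 and 0 calls by edgeR or DESeq2, where 1.19% of genes were called. Because the deletion and *atfs-1* libraries are near copies, this contrast mainly compares wild type of batch 1 with that of batch 3. *hsp-3* and *ire-1* were at 0.54 and -0.39 in it, and at -0.60 and 0.47 in wild type of batch 3 against batch 1. It therefore cannot tell whether the *atfs-1* effects agree.

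Among worms with constitutive ATFS-1, *dnj-27* rose in *atfs-1(et15)* worms, at 46.44, 74.11, 29, 27.39 and 28.38 normalized CPM, against 16.41, 22.51 and 21.37 in wild type. All 5 libraries were above the 3 wild-type ones, where 27.1% of all genes separated these groups completely. The log2 fold change of *dnj-27* was 0.91 ± 0.31 (SE, adjusted p = 0.022), 1 of 10 members called, where 33.3% of genes were called. The call was lost without et15 replicate 2 (0.84, adjusted p = 0.05) or 3 (0.67, 0.09), or without wild-type replicate 1 (0.77, 0.12) or 3 (0.96, 0.059). *pek-1* was at 111.1, 211.7, 45.19, 49.95 and 71.25 normalized CPM in *atfs-1(et15)* worms, against 25.5, 41.54 and 53.62 in wild type, a log2 fold change of 1.09 ± 0.43 (adjusted p = 0.051) that edgeR (1.31, adjusted p = 0.034) and DESeq2 (1.29, 0.016) called. It also passed without et15 replicate 4 (1.30, adjusted p = 0.022) or 5 (1.27, 0.028), and *ire-1* was called without et15 replicate 6 (-0.46), each of which gave 2 members called.

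In *atfs-1(et17)* worms 0 of 10 members were called, with 1 at an unadjusted p under 0.05 (*dnj-7*, -0.44 ± 0.19, adjusted p = 0.24) and 0 calls by edgeR or DESeq2, where 4.09% of genes were called. *hsp-4* had a lowest of 382.8, a median of 458.4 and a highest of 1702 normalized CPM in *atfs-1(et17)* worms, against 397.5, 499.6 and 739.9 in wild type. Only replicate 5 was above the wild-type range. Between the alleles 0 of 10 members were called, with 2 at an unadjusted p under 0.05 (*dnj-27*, 0.71 ± 0.26, adjusted p = 0.062, and *enpl-1*, 0.31 ± 0.13, adjusted p = 0.12), where 11.4% of genes were called. edgeR and DESeq2 each called *dnj-27* here (0.84 in both). It was also called without et15 replicate 4 (0.80, with *enpl-1* at 0.40, 2 called), 5 (0.82) or 6 (0.81) or et17 replicate 1 (0.78).

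*atfs-1(et15)* worms differed from wild type in markers of developmental stage. All 6 yolk genes were lower, their summed level running over 1674 to 14380 normalized CPM in *atfs-1(et15)* worms and 27020 to 76680 in wild type. Of 10 molting genes 9 were higher, with sums of 1215 to 4285 and 153.3 to 803.6. Among the ER lists, where 33.3% of all genes were called, 6 of 12 folding genes were higher, led by the ER prolyl isomerases *fkb-4* (2.94, adjusted p = 0.00012), *cyn-6* (1.94, adjusted p = 0.0014) and *fkb-5* (1.85, adjusted p = 0.011), and 1 was lower. Of 13 translocation genes 4 were lower (*sec-61.A*, the channel subunit, at -0.90) and 1 higher, and of 18 degradation genes 3 were lower, led by *mans-4* (-0.59).

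**Figure D3:**
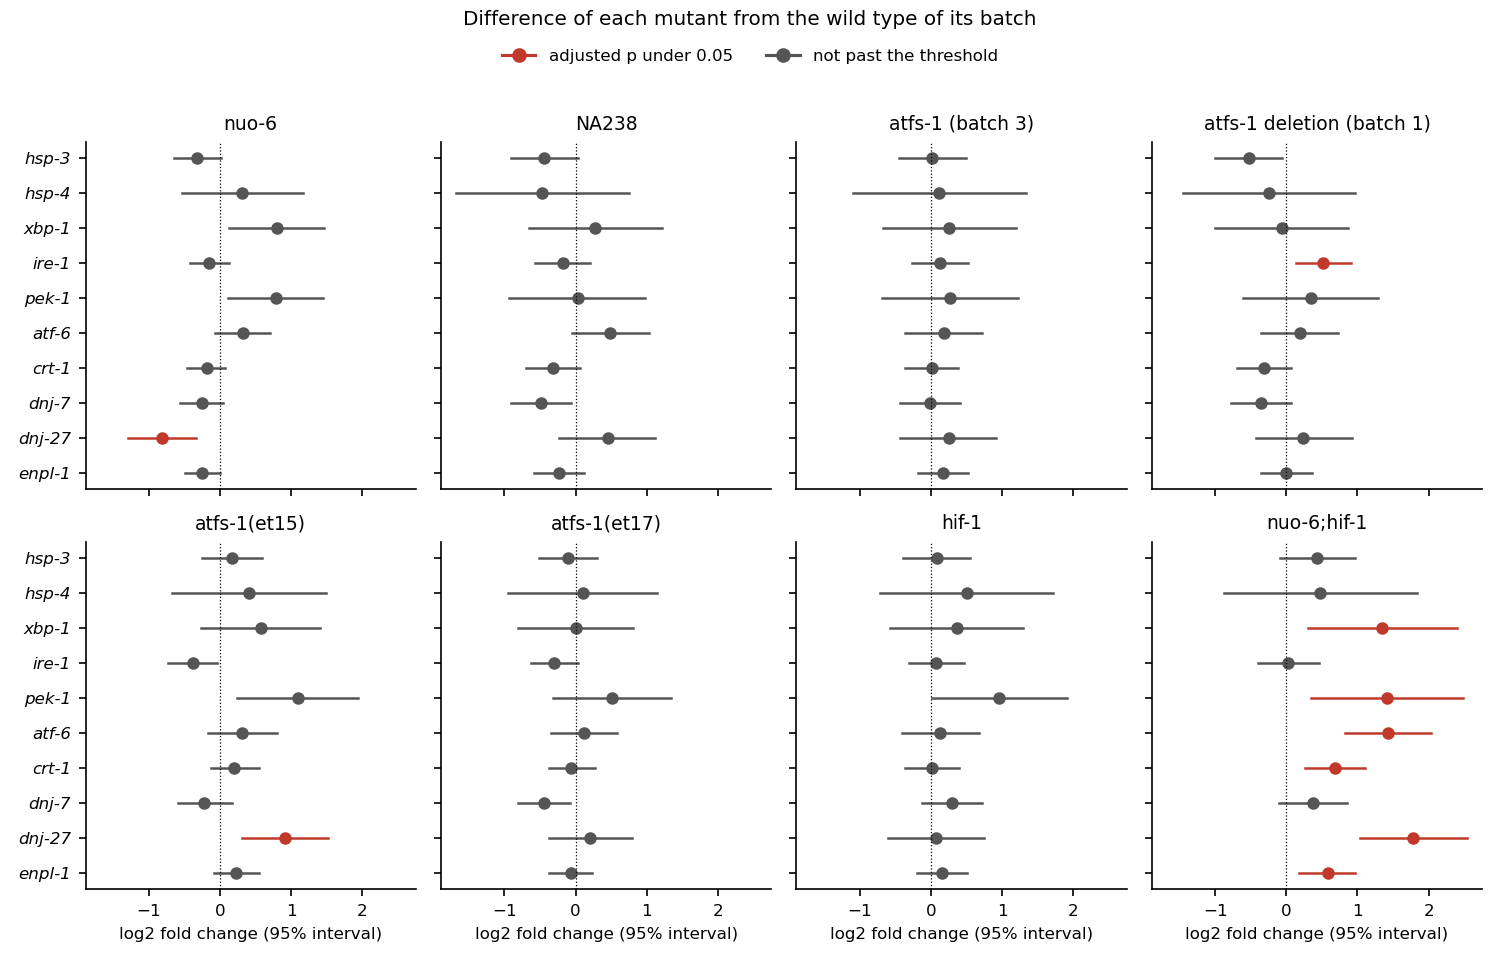
Log2 fold change of each member in each mutant relative to wild type of its batch, with the 95% interval from the fit's standard error (limma, all 43 libraries). Red marks an adjusted p under 0.05: *dnj-27* in *nuo-6* (-0.82) and *atfs-1(et15)* worms (0.91), *ire-1* in the deletion (0.52) and 6 members in *nuo-6;hif-1* worms, with *hsp-4* past the threshold in none.

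In *hif-1* worms 0 of 10 members were called, with 0 at an unadjusted p under 0.05 and 0 calls by edgeR or DESeq2, where 0.52% of genes were called. *pek-1* came closest, at 83.16, 52.06 and 98.71 normalized CPM in *hif-1* worms, against 25.5, 41.54 and 53.62 in wild type (log2 fold change 0.96 ± 0.49, adjusted p = 1). *hsp-4* was at 580.0, 469.7 and 1534, against 397.5, 499.6 and 739.9 in wild type, and the groups overlapped.

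The double mutant *nuo-6;hif-1* had the most members called, all higher. Of 10 members 6 were called, where 56.0% of all genes were: *dnj-27*, *atf-6*, *pek-1*, *xbp-1*, *crt-1* and *enpl-1*. *dnj-27* was at 85.68 and 56.7 normalized CPM in *nuo-6;hif-1* worms, against 16.41, 22.51 and 21.37 in wild type (log2 fold change 1.78 ± 0.38, adjusted p = 0.00031). *atf-6* was at 46.42 and 21.3, against 10.16, 11.43 and 12.63 in wild type (1.43 ± 0.31, adjusted p = 0.00031). These are the highest *dnj-27* and *atf-6* levels of the study, both in replicate 2.

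Replicate 2 was above replicate 3 for every member, most of all for *xbp-1* (3.24 times), *pek-1* (2.32) and *atf-6* (2.18). For the other members, the sensor gene *ire-1* (1.40) among them, it was 1.12 to 1.88 times as high. *xbp-1* was at 1113 and 343.4 normalized CPM in *nuo-6;hif-1* worms, against 196.7, 260.5 and 278.3 in wild type (1.35 ± 0.53, adjusted p = 0.031). *pek-1* was at 157.6 and 67.96, against 25.5, 41.54 and 53.62 (1.42 ± 0.54, adjusted p = 0.027), *crt-1* at 2662 and 1731, against 1261, 1407 and 1358 (0.68 ± 0.22, adjusted p = 0.0083), and *enpl-1* at 1023 and 829.7, against 543.8, 616.6 and 704.5 (0.58 ± 0.20, adjusted p = 0.016). With *hsp-3*, 7 of 10 members separated the groups completely, where 63.6% of all genes did. Without replicate 2 *dnj-27* alone was called (1.49), without replicate 3 all 6 were (up to 2.2 for *xbp-1*), and without wild-type replicate 1 the calls were *crt-1*, *atf-6* and *dnj-27* (0.63, 1.35 and 1.65). With 1 library left in the group, that library was assumed to vary like the others. *hsp-4*, at 1011 and 539.2, was not called (0.48 ± 0.69, adjusted p = 0.57).

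Relative to *hif-1* worms, *nuo-6;hif-1* worms had higher *dnj-27* (1.71 ± 0.38, adjusted p = 0.00057), *atf-6* (1.30 ± 0.31, adjusted p = 0.00095) and *crt-1* (0.66 ± 0.22, adjusted p = 0.011), 3 of 10 called, where 51.9% of genes were. This count was 1 without *nuo-6;hif-1* replicate 2 (*dnj-27*), 2 without *hif-1* replicate 1 and 5 without *hif-1* replicate 3, which added *enpl-1* (0.60) and *xbp-1* (1.36). *hif-1* and *nuo-6;hif-1* worms share their wild-type libraries with each other and with the *atfs-1* alleles of batch 1.

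Stage markers also differed between *nuo-6;hif-1* worms and wild type. All 6 yolk genes and all 11 oocyte and eggshell genes were lower, as were 5 of 8 sperm genes, with yolk sums of 2005 and 8199 normalized CPM in *nuo-6;hif-1* worms and 27020 to 76680 in wild type. Of 10 molting genes 8 were higher, with sums of 2630 and 2909 and of 153.3 to 803.6. In the ER lists, where 56.0% of all genes were called and no list is singled out by its count, 7 of 12 folding genes were higher (*fkb-4* 2.53, *fkb-5* 1.81 and *fkb-3* 1.78) and 1 lower, and 6 of 13 translocation genes were lower (*sec-61.A* -1.44, *trap-1* -1.32 and *sec-61.B* -1.30) with 0 higher. The calcium channel genes *unc-68* (1.47), the ryanodine receptor, and *itr-1* (0.84), the inositol trisphosphate receptor, were higher, 2 of 3 in that list.

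The effect of *nuo-6;hif-1* differed from that of *nuo-6* in 4 members, in a test of the difference itself, each mutant taken relative to wild type of its own batch. The differences were 2.60 ± 0.46 for *dnj-27* (adjusted p = 0.00019), 1.11 ± 0.37 for *atf-6* (adjusted p = 0.02), 0.87 ± 0.25 for *crt-1* (adjusted p = 0.0095) and 0.83 ± 0.24 for *enpl-1* (adjusted p = 0.0086), 4 of 10 called, where 29.5% of genes were. The effect of the *nuo-6* mutation with the *hif-1* mutation, against *hif-1* worms, exceeded that of *nuo-6* alone in the same 4 members (2.53, 0.98, 0.86 and 0.67), where 29.7% of genes were called. Of these, *atf-6* was called in 9 of 17 fits with a library left out and lost its call with no filter (adjusted p = 0.06) and in the fit of only the batches compared (0.068), and *enpl-1* lost it there (0.053), with the replicate block (0.11) and by DESeq2 (0.051). Without *nuo-6;hif-1* replicate 2 both counts were 1, *dnj-27* (2.30 and 2.23). The second count was also 1 without *hif-1* replicate 1, and 2 without *hif-1* replicate 2 or wild-type replicate 7. The 2 sets of worms were sequenced in different batches, and each enters only relative to the wild-type or *hif-1* worms of its own batch. Both *dnj-27* differences rest in part on wild type of batch 2, where *dnj-27* was higher than in wild type of batch 1.

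The same test for NA238 against *nuo-6* gave 0 of 10 calls, with 1 member at an unadjusted p under 0.05, *dnj-27* (1.26 ± 0.42, adjusted p = 0.05, just outside the threshold), where 9.56% of genes were called. edgeR called 0 members and DESeq2 called *dnj-27* (1.28). It was called without wild-type replicate 4 (1.40), 5 (1.38) or 8 (1.34) or *nuo-6* replicate 2 (1.43). Against *atfs-1* worms in place of wild type, the *nuo-6* effect in NA238 differed from that in *nuo-6* alone for 0 members, with 1 at an unadjusted p under 0.05 (*dnj-27*, 1.02 ± 0.42, adjusted p = 0.13) and 0 calls by edgeR or DESeq2, where 9.34% of genes were called. It passed without *nuo-6* replicate 2 (1.19).

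*dnj-27*, the member called most often, went with the stage markers in batches 1 and 2 but not in batch 3. How many of all genes do so was not tested. A stage index was taken as the first principal component of 35 yolk, oocyte, sperm and molting markers over the wild-type libraries. There it held 85.8% of their variance. All 6 yolk and 11 oocyte markers had positive weights and all 10 molting markers negative ones. The 8 sperm markers were split, with 5 positive and 3 negative weights. The index was lowest in *nuo-6;hif-1* (-12.88 and -10.74) and *atfs-1(et15)* worms (-14.55 to -4.87), against -1.97 to 9.43 in wild type of batch 1. It ran over -6.57 to 4.88 in *nuo-6* worms and -10.21 to 1.16 in wild type of batch 2, and over -4.08 to -0.90 in NA238 worms, -0.98 to 0.04 in *atfs-1* worms and -1.59 to 4.36 in wild type of batch 3.

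Within groups, *dnj-27* was higher in libraries with a lower index. Taking each library as its deviation from the mean of its genotype and batch, over 40 libraries without the deletion, Pearson r was -0.71 and Spearman rho -0.57 (permutation within groups, 100000 draws, p = 0.00017 and 0.001, adjusted over 10 members 0.0017 and 0.01). Without the 2 libraries farthest on the index r was -0.62. Within batches r was -0.76 in batch 1, -0.71 in batch 2 and -0.02 in batch 3, so the relation did not hold in batch 3. *crt-1* (r = -0.52, adjusted p = 0.011; rho = -0.46, adjusted p = 0.048 by permutation) and *atf-6* (r = -0.46, adjusted p = 0.011; rho = -0.32, adjusted p = 0.16 by permutation) also had negative values, with r of -0.09 and 0.59 within batch 3. *hsp-4* had no detectable relation (r = -0.15 and rho = -0.09, adjusted p = 0.44 and 0.61 by permutation).

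With the index as a covariate the calls changed. In *atfs-1(et15)* worms *dnj-27* was at -0.15 (adjusted p = 0.78), and in *nuo-6;hif-1* worms 0 of 10 members were called by limma with this covariate, *dnj-27* being at 0.40 (adjusted p = 0.52) and *atf-6* at 0.72 (adjusted p = 0.18). In *nuo-6* worms *dnj-27* was still lower (-0.60, adjusted p = 0.0053), and *xbp-1* (0.92), *pek-1* (0.88) and *atf-6* (0.43) were called as higher. The share of all genes called with this covariate is not given here, so these counts cannot be read as a trait of the members. The index separates both *nuo-6;hif-1* and *atfs-1(et15)* worms from wild type of batch 1 completely, so that in these groups stage markers and genotype cannot be told apart.

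**Figure D4:**
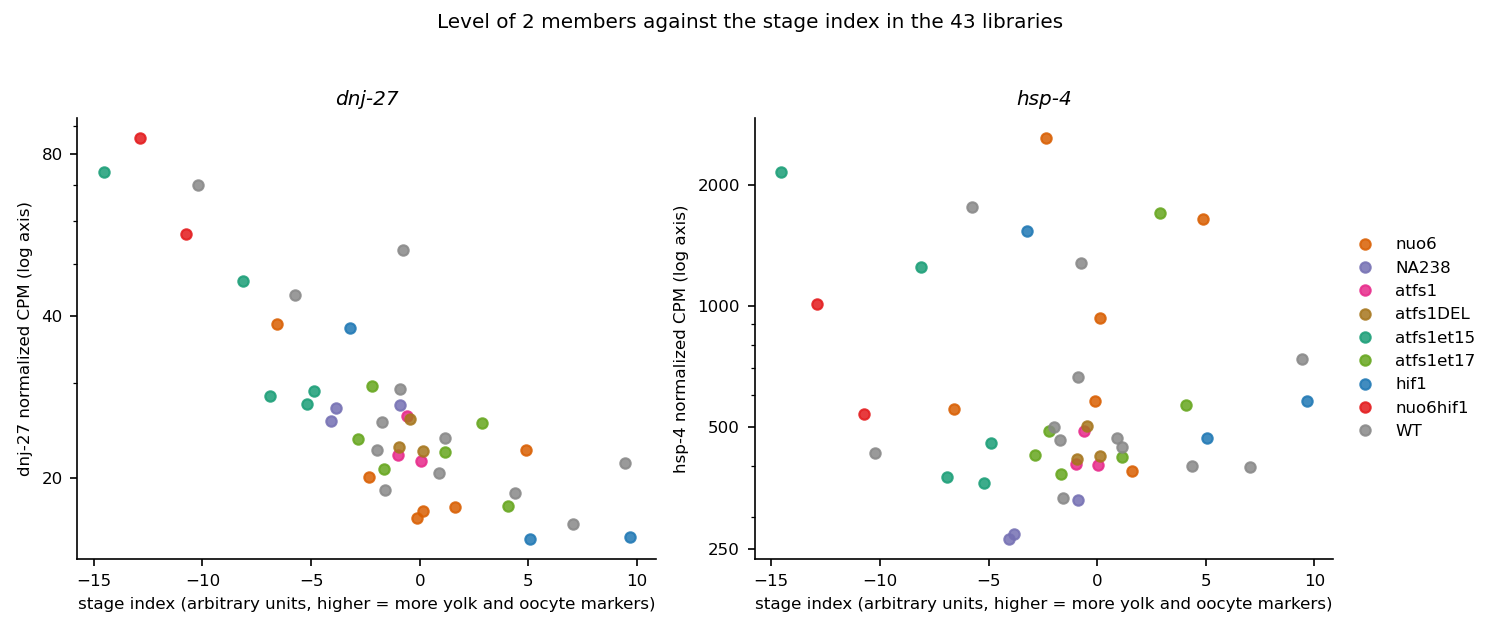
Level of *dnj-27* (left) and *hsp-4* (right) in normalized CPM on log axes against the stage index, in arbitrary units, with 1 point per library coloured by genotype. *dnj-27* is highest where the index is lowest, as in *atfs-1(et15)* replicate 3 (74.11) and both *nuo-6;hif-1* libraries (85.68 and 56.7), while the 9 libraries with *hsp-4* above 1000 lie between -14.55 and 4.88 on the index.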

How the data were processed

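Libraries were made with a stranded mRNA kit and sequenced as single reads, which the authors aligned to WBcel235 and counted per gene with STAR 2.5.2b and Ensembl annotation. The authors removed 1 replicate each of *nuo-6;hif-1* and *atfs-1(et15)* after a principal component analysis. They deposited a table of CPM over 46739 genes and a filtered table of 13837 genes whose values are a signal equal to CPM times 1 constant per library, made with edgeR 3.20.1. Dividing the deposited CPM by the value of 1 read gave whole reads for 100.0% of non-zero values (tolerance 0.01). Depth was 21466920 to 48493377 reads. Since p-values rest on plates whose independence the labels do not state, they measure the spread between these libraries.

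Log2(normalized CPM + 0.5) was fitted with limma 3.58.1 (R 4.3.3, trend, empirical Bayes) over all 13837 genes and 43 libraries, with 1 mean per genotype and batch, and calls were made at an adjusted p under 0.05. A count model was not used as the main test because the filtered table does not hold counts; edgeR 4.0.16 and DESeq2 1.42.0 on recovered reads were alternatives. Figures and summaries used Python 3.11.15. The rule for the members uses gene symbols only, but the members and gene lists were chosen with earlier results of these data known. The library-pair ratio, its 2 alternatives and the comparisons of the *nuo-6* effect with and without a second mutation were added after seeing the data. Named were all members, the targeted genes and *hsp-6*, up to 3 called genes of each other list with the largest change per comparison with wild type, and the 5 genes most like *hsp-4* and *hsp-3*. Replicate labels paired libraries only for *atfs-1* and wild type in batch 3, where same-letter libraries deviated together (correlations 0.45 to 0.69 over 3 pairs); the block changed no member's call there. Promoter motifs were not analysed here. The fit was tested on simulated data.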

Additional observations from a re-analysis of the deposited data

Results flagged for a closer look

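Of 40 combinations of a member with a group of 5 or 6 libraries, 8 held 1 library far from the rest by Dixon's test at the 95% level, where chance flags about 1 in 20 groups, and the members share libraries, so these are not 8 separate events. *atfs-1(et17)* replicate 5 was the highest for 4 members: *hsp-4* (1702 normalized CPM, next highest 567.8), *xbp-1* (549.4, next 262.9), *pek-1* (130.0, next 55.52) and *enpl-1* (695.6, next 587.1). Wild-type replicate 6 of batch 2 was the highest for *xbp-1* (537.7, next 322.4) and *pek-1* (129.0, next 50.38). *nuo-6* replicate 3 stood out for *xbp-1* (1626, next 728.8) and *nuo-6* replicate 2 for *dnj-27* (38.66, next 22.5).

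Differences between mutants were past the threshold for *nuo-6;hif-1* against *nuo-6*, each relative to wild type, in *dnj-27* (2.60 on the log2 scale), *atf-6* (1.11), *crt-1* (0.87) and *enpl-1* (0.83), by the limma contrast itself. The *nuo-6* effect on top of *hif-1* against the *nuo-6* effect alone was past it for *dnj-27* (2.53), *atf-6* (0.98), *crt-1* (0.86) and *enpl-1* (0.67). Both rest on 2 *nuo-6;hif-1* libraries.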

How the results depend on the processing

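Counts of members called are given by setting, with the sizes in the report as the base. The share of all genes called under each setting is not set beside them, so the counts cannot be read as a trait of the members. Over single members, 1904 results stayed on their side of the threshold, 79 lost the call, 43 gained it and 2 reversed. A change of direction was counted as a reversal only where either fit called the member. The 1904 can thus hold uncalled results that changed direction. With no batch term the counts were 0 for the deletion, 2 for *atfs-1* of batch 3 (*hsp-3* reversed, to -0.61), 2 for et15, 1 for et17, 4 for NA238, 3 for *nuo-6*, 8 for NA238 against *nuo-6*, 2 for *nuo-6;hif-1* against *nuo-6* and 1 for the *nuo-6* effect with against without *hif-1*, and *rtcb-1* in NA238 reversed (0.01). In that fit *dnj-27* lost its call in *nuo-6* (-0.35, adjusted p = 0.23 by limma) and et15 (0.47, 0.14), the members called being *xbp-1*, *pek-1* and *atf-6* in *nuo-6* and *pek-1* and *ire-1* in et15. With the stage index as a covariate they were 3 for the deletion, 4 for *nuo-6*, and 0 for et15, for *nuo-6;hif-1* against wild type, *hif-1* or *nuo-6*, and for the *nuo-6* effect with against without *hif-1*. It reversed *dnj-27* (-0.15), *mans-4* (0.06), *cdc-48.1* (0.01) and *fkb-5* (-0.16) in et15, and *fkb-4* (-0.38), *fkb-5* (-0.81) and *fkb-3* (-0.50) in *nuo-6;hif-1*. Fitting only the batches compared gave 0 for the deletion, 6 for NA238 against wild type, 6 against *atfs-1* and 1 against *nuo-6*, and 2 for the *nuo-6* effect with against without *hif-1*. Taking *atfs-1* and the deletion as 1 genotype gave 0 for the deletion, 3 for et15, 1 for NA238 and 1 for NA238 against *nuo-6*. Library size as the only scaling gave 2 for et15, 3 for *nuo-6* and 1 for NA238 against *nuo-6*. No filter, and wild type of batch 3, each gave 0 for the deletion. edgeR gave 0 for the deletion, 2 for et15, 2 for *nuo-6* and 1 for et15 against et17, and DESeq2 gave 2, 2 and 1 for the last 3 and 1 for NA238 against *nuo-6*. The cause of these changes was not tested.

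With the replicate block, *nuo-6* had 1 member called (*dnj-27*, -0.77), et15 had 1 (1.23), *nuo-6;hif-1* had 5, having lost *pek-1*, et15 against et17 had 1 and NA238 against *nuo-6* had 1; outside *atfs-1* and wild type of batch 3 the numbers were not shown to pair libraries. Leaving out 1 library gave 0 to 1 for the deletion, 0 to 2 for et15, 0 to 2 for et15 against et17, 0 to 1 for NA238 against *nuo-6*, 1 to 3 for *nuo-6*, 0 to 1 for the *nuo-6* effect with against without *atfs-1*, and 1 to 5 for it with against without *hif-1*. It gave 1 to 5 for *nuo-6;hif-1* against *hif-1*, 1 to 5 against *nuo-6* and 1 to 6 against wild type, 5 to 6 between wild type of batches 3 and 2, and 0 for *atfs-1* of batch 3, et17, *hif-1* and NA238 against wild type, for NA238 against *atfs-1* and for *atfs-1* of batch 3 against the deletion; it was not run for wild type of batch 1 against the other batches. Precision was limited by the 2 *nuo-6;hif-1* libraries, by the spread of *hsp-4* and, for *atf-6* and *dnj-27* in batch 3, by counting error.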
